A study of Homo sapiens with 14 samples.

Results

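Expression of 9 genes of amino acid synthesis and uptake was followed by RNA-Seq in 14 libraries of the MDA-MB-231 line, which comes from a triple-negative human breast cancer. The genes are GLUL (glutamine synthesis), ASNS (asparagine synthesis), PHGDH, PSAT1 and PSPH (serine synthesis), SHMT2 (serine use), SLC1A5 and SLC7A11 (amino acid transport) and ATF4 (a transcriptional regulator of several of them). They were matched by gene name, and 9 of 9 were found among the 19410 genes of the deposited table. The set was chosen by the level of GLUL, which had the largest drop among the angiogenesis and migration genes of the study in SIN3A/3B-DKO2 cells. Values of all 9 genes in SIN3A/3B-DKO2 against parental cells, and of GLUL in the SAP30-KO and SIN3A/3B-DKO lines, are therefore given as a description without a test.

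The study asked how loss of SAP30, a subunit of the SIN3 corepressor complex, of its scaffold proteins SIN3A and SIN3B, and of the histone methyltransferase MLL1 changes transcription in breast cancer cells. Parental cells were compared with 6 lines made from them with CRISPR/Cas9, namely the single knockouts SAP30-KO1, SAP30-KO2, MLL1-KO1 and MLL1-KO2, and the lines SIN3A/3B-DKO1 and SIN3A/3B-DKO2, in which SIN3A and SIN3B were knocked out together. Each of the 7 groups had 2 libraries. The methods name either DMEM or its mixture with Ham's medium, with fetal bovine serum, and do not say which was used for these cells. The labels name no treatment. Per the methods of the study the edited cells had received a guide RNA vector and puromycin selection, which are not described for parental cells. Each edited line is a mix of several clones that grew from single edited cells.

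Cells make glutamine from glutamate and ammonia with glutamine synthetase, the product of GLUL, and asparagine from aspartate and glutamine with the product of ASNS. Serine is built from the glycolytic intermediate 3-phosphoglycerate by PHGDH, PSAT1 and PSPH in turn, and mitochondrial SHMT2 then converts it to glycine and feeds the folate cycle. The transcription factor ATF4 accumulates when amino acids are short and is known to activate ASNS, the serine synthesis genes and SLC7A11.

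The upstream sequences of 3 of these genes are shown because they hold known elements of the ATF4 response or CCAAT boxes, to which the factor NF-Y binds. Each run is the 150 bases before the start site, 5′ to 3′ on the strand of the gene, from the RefSeq promoter windows on GRCh38.p14, with matches in capitals.
GLUL: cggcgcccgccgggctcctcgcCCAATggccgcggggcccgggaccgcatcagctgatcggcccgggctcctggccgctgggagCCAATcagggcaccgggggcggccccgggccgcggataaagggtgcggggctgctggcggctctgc
ASNS: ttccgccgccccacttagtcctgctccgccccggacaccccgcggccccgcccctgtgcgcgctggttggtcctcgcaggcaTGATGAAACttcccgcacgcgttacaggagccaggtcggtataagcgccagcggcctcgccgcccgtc
PSAT1: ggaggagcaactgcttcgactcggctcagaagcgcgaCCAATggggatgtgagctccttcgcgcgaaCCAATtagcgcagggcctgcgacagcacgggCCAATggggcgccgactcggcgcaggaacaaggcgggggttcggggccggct
The runs are chr1:182391791-182391940 on the minus strand, chr7:97872409-97872558 on the minus strand and chr9:78296975-78297124 on the plus strand. Windows were found for 6 of the 9 genes, and PSPH, SHMT2 and SLC7A11 had none. GLUL, ASNS and ATF4 had 2 windows each and SLC1A5 had 3, and only the first window of each gene was searched. Both strands of the 250 bases before each start were searched for TGATGNAA, for the longer form TGATGAAAC, which is the nutrient-sensing element of the ASNS promoter and overlaps the first, and for CCAAT. The ATF4-type element was found in ASNS, at base -68 from the start, while the 5 other windows, GLUL included, did not hold these letters. CCAAT stood at -128 and -66 in GLUL, at -113, -83 and -52 in PSAT1, at -71 in PHGDH and at -84 in SLC1A5, and was not found in ATF4. Over all 35116 windows of that length, 3.14% held TGATGNAA, 0.196% held TGATGAAAC and 32% held CCAAT, so CCAAT is common and the ASNS element is rare.

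Values are in TPM, the number of transcripts of a gene relative to all transcripts, which is a read count scaled by gene length and by library so that levels can be compared between genes. Libraries held from 18415036 to 23162682 recovered reads. The labelled cell type fitted its markers, since 6 of 6 basal and mesenchymal markers reached at least 96.1 TPM in every library, while the 6 luminal markers summed to 14.1 to 33.4 TPM, carried by EPCAM and GATA3, with ESR1, PGR and FOXA1 at or below 0.191 TPM. CDH1, the remaining luminal marker, was at or below 1.245 TPM. The 6 markers of immune, endothelial and liver cells summed to 162 to 291 TPM, nearly all of it the lysosomal gene CD68. CD3E, CDH5 and ALB were at or below 0.263 TPM and PTPRC at or below 0.603 TPM. PECAM1, an endothelial marker, was low but present in every library, at 1.547 to 3.975 TPM. SAP30 fell from 78.9 and 82.8 TPM in parental cells to between 2.75 and 4.96 TPM in the SAP30-KO libraries. MLL1 RNA, listed as MLL, was 49.0 and 56.7 TPM in parental cells, 15.8 and 17.4 TPM in MLL1-KO1, with MLL1-KO2 at 25.8 and 27.7 TPM, and it was also lower in the SAP30-KO libraries, at 23.0 to 35.4 TPM. SIN3B fell from 75.1 and 77.4 TPM to between 43.5 and 50.2 TPM in the libraries labelled SIN3A/3B-DKO, but SIN3A RNA was higher there, at 55.1 to 62.5 TPM against 43.1 and 45.4 TPM, so SIN3A RNA does not check that label. The libraries of SIN3A/3B-DKO2 stood apart from each other: a chi-square of their reads per degree of freedom was 8.21, against 1.48 to 3.85 in the other groups. The labels do not say whether the 2 libraries of a group came from separate cultures, so p-values measure only the spread between these libraries. The annotation names pseudogene copies of GLUL, ASNS, PSAT1, PSPH and ATF4 and an antisense gene of SLC7A11, and how reads shared with them were counted is uncertain. In bulk RNA, fewer cells with a transcript and less of it per cell cannot be told apart.

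As a ratio of highest to lowest level GLUL had the widest range of the 9 genes, and it was lower than in parental cells in all 12 libraries of the 6 edited lines. The gene lies on chromosome 1 (GRCh37, 182347233 to 182361341, minus strand). Parental libraries held 50.5 and 49.2 TPM of GLUL. The SAP30-KO1 libraries held 18.8 and 19.5 TPM and those of SAP30-KO2 21.0 and 21.2 TPM. Both SAP30-KO lines were thus below every parental library and above every library of the other edited lines. SIN3A/3B-DKO1 libraries held 13.6 and 14.9 TPM, and MLL1-KO2 libraries 9.66 and 9.56 TPM. MLL1-KO1 libraries held 4.88 and 5.79 TPM. SIN3A/3B-DKO2 stood far below all others at 0.144 and 0.172 TPM, which is 6 and 7 reads where parental libraries had 1798 and 1706. None of the 7 groups overlapped another in GLUL level, and the order from high to low was parental, SAP30-KO2, SAP30-KO1, SIN3A/3B-DKO1, MLL1-KO2, MLL1-KO1 and SIN3A/3B-DKO2. The share of all genes whose libraries separate in this way, or lie wholly above or below the parental pair, was not counted. This holds for GLUL and for the other members below. With 2 libraries a group, such separation is therefore a description only.

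**Figure D1:**
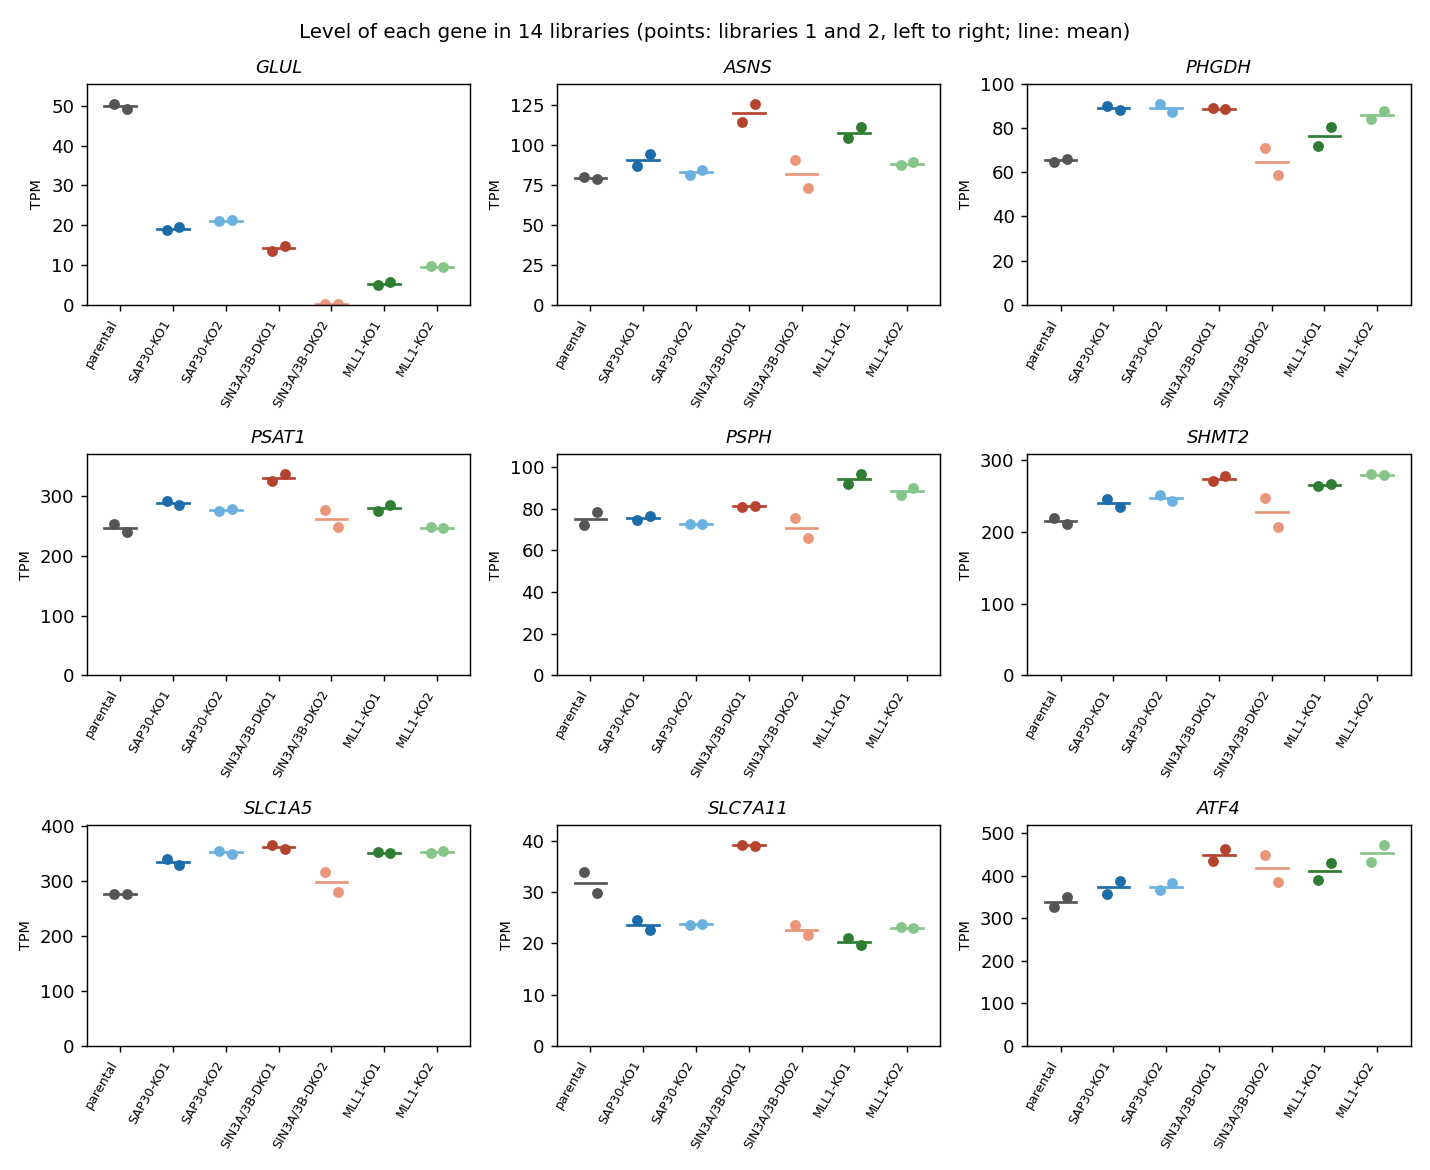
Level of the 9 genes in TPM (vertical axis, from 0) in each of the 14 libraries (points) of the 7 groups (horizontal axis), with the group mean as a line. GLUL steps down from about 50.5 TPM in parental cells to 0.144 TPM in SIN3A/3B-DKO2, while SLC7A11 is highest in SIN3A/3B-DKO1, at 39.2 TPM, and the other 7 genes vary less between groups, as a ratio, than GLUL does.

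As a share of the parental level, SAP30-KO1 had 38.4% of GLUL, SAP30-KO2 had 42.4% and SIN3A/3B-DKO1 had 28.5%. MLL1-KO1 had 10.7% and MLL1-KO2 had 19.3%. In SIN3A/3B-DKO2 it was at 0.316% of parental, or 316-fold lower, from 13 reads against 3504 in parental cells. With so few reads the size of this ratio is uncertain, and since the set was chosen by this drop it is a description only. Differences on the log2(TPM + 0.5) scale, which understates the change of low values, were -1.36 and -1.22 for SAP30-KO1 and SAP30-KO2, -1.78 for SIN3A/3B-DKO1 and -6.26 for SIN3A/3B-DKO2.

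The MLL1-KO lines were not used to choose the gene set, and there the fall of GLUL was tested. The test uses the same 2 parental libraries as the choice of the set, so it is not fully independent of that choice. GLUL fell by 3.11 (SE 0.0824) in MLL1-KO1 and by 2.32 in MLL1-KO2 on the log2 scale, with Benjamini-Hochberg adjusted p of 2.6e-10 and 1.6e-09 in limma. A gene was called when its adjusted p was under 0.05 and its change at least 1.5-fold, and by that rule 16.3% of all 13540 genes tested were called lower for MLL1-KO1 and 14.9% for MLL1-KO2. GLUL was higher in MLL1-KO2 than in MLL1-KO1 by 0.80 (adjusted p = 2.4e-05), so the 2 lines of this genotype differed in size though not in direction. The 2 SAP30-KO lines differed by 0.14 in GLUL, which did not pass (adjusted p = 0.49). SIN3A/3B-DKO2 differed from SIN3A/3B-DKO1 by -4.48, described without a test because that line chose the set. The drop was present in both libraries of SIN3A/3B-DKO2, at -6.29 without library 2 and -6.23 without library 1.

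Most of the genes around GLUL did not share its drop, and GLT25D2 came nearest to it in size. The 50 nearest tested genes, from ZBTB37 to PLA2G4A, had a median log2 difference of 0.096 in SIN3A/3B-DKO2, 0.0060 in SIN3A/3B-DKO1, with 0.030 and 0.011 for SAP30-KO1 and SAP30-KO2. In the MLL1-KO lines the medians were -0.12 and -0.033, and 7 and 5 of the 50 genes were at least 1.5-fold lower, against 1 or 2 in each other line. The lowest of the 50 in each line was GLT25D2, a collagen galactosyltransferase gene, which ranged from -2.06 in MLL1-KO2 to -1.01 in SAP30-KO1 and was above GLUL in all 6 lines. In SAP30-KO2 GLT25D2 was at -1.175 and GLUL at -1.22, a gap smaller than the standard error of 0.0824 on the latter. In SIN3A/3B-DKO2 the nearby genes STX6, MR1, IER5, NPL and DHX9 lay between 0.055 and 0.91. Once the running median of its neighbours was taken off, GLUL was at -2.99 in MLL1-KO1 (adjusted p = 6.4e-10) and at -2.28 in MLL1-KO2 (adjusted p = 3.3e-09).

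**Figure D2:**
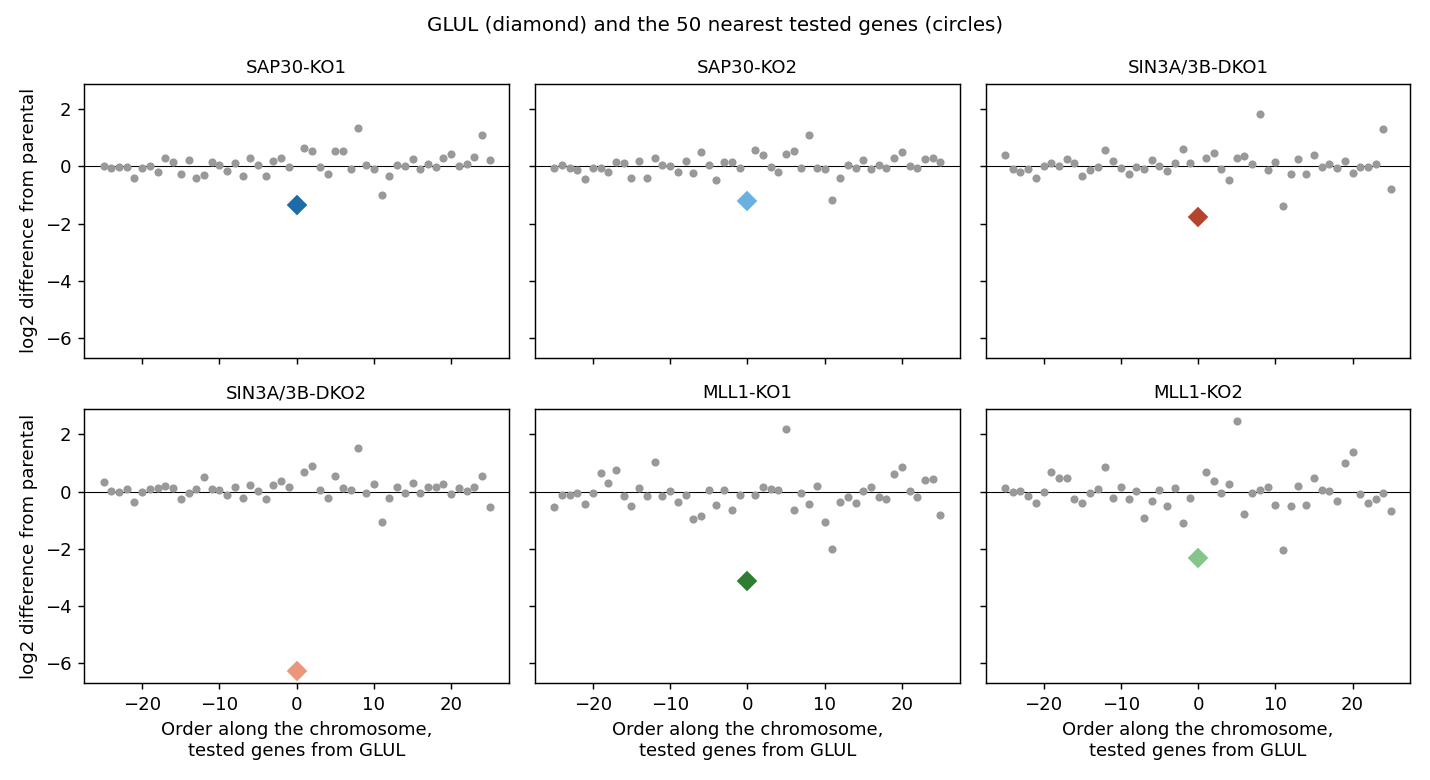
Log2 difference from parental cells (vertical axis) of GLUL (diamond) and its 50 nearest tested genes (circles), placed by their order along the chromosome (horizontal axis), 1 panel for each edited line. GLUL lies below all 50 neighbours in each panel, with GLT25D2 the next lowest, and the median of the neighbours lies between -0.12 and 0.096.

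ASNS, asparagine synthetase (chromosome 7, 97480989 to 97501854, minus strand), was at 80.2 and 78.8 TPM in parental libraries. Its level was highest in SIN3A/3B-DKO1, at 114 and 126 TPM, followed by MLL1-KO1 at 104 and 111 TPM, and neither line overlapped parental cells. SAP30-KO1 held 86.8 and 94.2 TPM, SAP30-KO2 81.4 and 84.1 TPM, and MLL1-KO2 87.3 and 89.1 TPM. In SIN3A/3B-DKO2 the libraries, at 90.5 and 72.8 TPM, lay on either side of the parental ones. The rise of 0.59 (SE 0.0863) in SIN3A/3B-DKO1 was called (adjusted p = 1.9e-04), and 7.76% of all genes were called higher there. It lies at the 1.5-fold limit, and the call was lost without parental library 2 (0.58), without SIN3A/3B-DKO1 library 2 (0.52), with quantile normalization (0.57) and with median ratio scaling (0.58), each with an adjusted p still under 0.05. In MLL1-KO1 ASNS rose by 0.43 (adjusted p = 0.0012), under 1.5-fold, and the differences of 0.18, 0.058 and 0.15 in SAP30-KO1, SAP30-KO2 and MLL1-KO2 did not pass.

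PHGDH, PSAT1 and PSPH catalyse the first, second and last steps of serine synthesis. PHGDH (chromosome 1, 120191034 to 120286841, plus strand) was at 64.5 and 66.0 TPM in parental libraries. It was at 89.9 and 88.0 TPM in SAP30-KO1, 90.9 and 87.2 TPM in SAP30-KO2, while SIN3A/3B-DKO1 held 89.0 and 88.4 TPM. These 3 lines were alike in level, and each rose by 0.44 or 0.45 (adjusted p = 6.7e-04, 6.5e-04 and 6.6e-04). PHGDH was at 84.2 and 87.5 TPM in MLL1-KO2 and 71.7 and 80.6 TPM in MLL1-KO1, a rise of 0.39 (adjusted p = 0.0011) and of 0.22 (adjusted p = 0.030). SIN3A/3B-DKO2 libraries, at 70.8 and 58.6 TPM, lay on either side of the parental pair, a difference of -0.019. The 50 genes nearest to PHGDH had a median difference of 0.27 and 0.21 in the SAP30-KO lines, and with neighbours subtracted the PHGDH differences were 0.17 (adjusted p = 0.17) and 0.22 (adjusted p = 0.078), so the rise in the SAP30-KO lines did not pass by that measure. In SIN3A/3B-DKO1 the neighbours were at -0.0087 and the rise remained at 0.44.

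PSAT1 (chromosome 9, 80912041 to 80945009, plus strand) was at 253 and 240.3 TPM in parental libraries and at 324.5 and 336 TPM in SIN3A/3B-DKO1, a rise of 0.42 (adjusted p = 2.4e-05). SAP30-KO1 held 291 and 286 TPM, SAP30-KO2 275.5 and 279 TPM, and MLL1-KO1 274.5 and 285 TPM, and all of these libraries lay above the parental pair. Their rises of 0.23, 0.17 and 0.18 passed (adjusted p = 0.0021, 0.011 and 0.0063), but with neighbours subtracted those of the SAP30-KO lines did not (adjusted p = 0.19 and 0.18). MLL1-KO2, at 248 and 247 TPM, lay between the parental libraries, a difference of 0.0034. SIN3A/3B-DKO2 held 276 and 248 TPM.

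PSPH (chromosome 7, 56078744 to 56119297, minus strand) was at 72.2 and 78.3 TPM in parental libraries and rose in the MLL1-KO lines only among the 5 tested, to 91.85 and 96.5 TPM for MLL1-KO1 and 86.7 and 90.1 TPM for MLL1-KO2. The rises were 0.32 (adjusted p = 8.0e-04) and 0.23 (adjusted p = 0.0059), and the direct test of MLL1-KO against SAP30-KO lines gave 0.30 (adjusted p = 8.6e-05) and that against SIN3A/3B-DKO lines 0.27 (adjusted p = 1.9e-04). The SAP30-KO libraries ranged from 72.8 to 76.3 TPM, inside the parental range, and SIN3A/3B-DKO1 held 80.8 and 81.2 TPM, a difference of 0.11 that did not pass. SIN3A/3B-DKO2 held 75.55 and 65.9 TPM.

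SHMT2 (chromosome 12, 57623356 to 57628718, plus strand) was at 219.5 and 210.4 TPM in parental libraries. It reached 271 and 277 TPM in SIN3A/3B-DKO1, 263 and 266 TPM for MLL1-KO1 and 280.0 and 278 TPM for MLL1-KO2, rises of 0.35, 0.30 and 0.38 (adjusted p = 9.4e-04, 0.0021 and 4.1e-04). SAP30-KO2 held 252 and 243 TPM, a rise of 0.20 (adjusted p = 0.023), and SAP30-KO1 246 and 234 TPM, a difference of 0.16 that did not pass. The rise in SAP30-KO2 did not pass with neighbours subtracted (0.13, adjusted p = 0.17) or with median ratio scaling (0.18, adjusted p = 0.053). All libraries of these 5 lines lay above the parental pair, whereas SIN3A/3B-DKO2 held 247 and 207 TPM, 1 on either side of it.

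SLC1A5 encodes ASCT2, a transporter that brings glutamine into the cell (chromosome 19, 47278140 to 47291851, minus strand). It was at 277 TPM in both parental libraries and higher in every library of the 6 edited lines. The libraries of SAP30-KO1, SAP30-KO2, SIN3A/3B-DKO1, MLL1-KO1 and MLL1-KO2 ranged from 329 to 366.5 TPM. The rises were 0.27, 0.35, 0.39, 0.35 and 0.35 in that order (adjusted p from 4.1e-05 to 5.4e-04), and none reached 1.5-fold. SIN3A/3B-DKO2 was nearest to parental cells, at 317 and 280.0 TPM. Of the 8 members other than GLUL, it was the only one whose adjusted p was under 0.05 in each of these 5 lines, in 1 direction, with and without the neighbours subtracted.

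SLC7A11 encodes the cystine importer xCT, which exchanges glutamate for the cystine used to make glutathione (chromosome 4, 139085251 to 139163503, minus strand). Besides GLUL it was the only member that fell in any line tested. Parental libraries held 33.9 and 29.7 TPM. SAP30-KO1 held 24.5 and 22.6 TPM, SAP30-KO2 23.5 and 23.8 TPM, MLL1-KO1 20.9 and 19.6 TPM and MLL1-KO2 23.1 and 22.9 TPM. All 8 of these libraries lay below the parental pair. How many of all genes do so was not counted, so this is a description only. SIN3A/3B-DKO1 went the other way, to 39.2 and 39.0 TPM, above every other library, while SIN3A/3B-DKO2 lay with the lower group at 23.6 and 21.5 TPM.

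The difference of SLC7A11 from parental cells was -0.42 in both SAP30-KO lines (adjusted p = 4.8e-04 and 5.4e-04) and -0.45 in MLL1-KO2 (adjusted p = 1.9e-04). With neighbours subtracted the fall in SAP30-KO2 did not pass (-0.22, adjusted p = 0.058). In MLL1-KO1 it was -0.63 (SE 0.0706, adjusted p = 1.6e-05), which was called. That call was lost without parental library 1 (-0.54), with quantile normalization (-0.50), with median ratio scaling (-0.54) and with neighbours subtracted (-0.36), each with an adjusted p still under 0.05. The rise of 0.30 in SIN3A/3B-DKO1 passed (adjusted p = 0.0044), and the difference between SIN3A/3B-DKO2 and SIN3A/3B-DKO1, -0.78, was called (adjusted p = 9.0e-05). It was -0.72 without SIN3A/3B-DKO2 library 2 (adjusted p = 0.0010) and -0.85 without library 1 (adjusted p = 2.0e-04).

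ATF4 (chromosome 22, 39915700 to 39918688, plus strand) had the highest level of the 9 genes in every library. Parental libraries held 326 and 350.0 TPM. ATF4 was at 435 and 464 TPM in SIN3A/3B-DKO1, 434 and 473 TPM in MLL1-KO2 and 390.1 and 431 TPM in MLL1-KO1, all above the parental pair. These rises were 0.41, 0.42 and 0.28 (adjusted p = 0.0011, 6.9e-04 and 0.0099). SAP30-KO1 held 358.5 and 387 TPM and SAP30-KO2 366 and 383 TPM, which were differences of 0.14 and 0.15 that did not pass. In SIN3A/3B-DKO2 it was at 450.1 and 386 TPM, a difference of 0.30, the largest among the 5 members with a value above parental in that line. ATF4 is controlled largely at translation, so its RNA is not a measure of the protein.

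**Figure D3:**
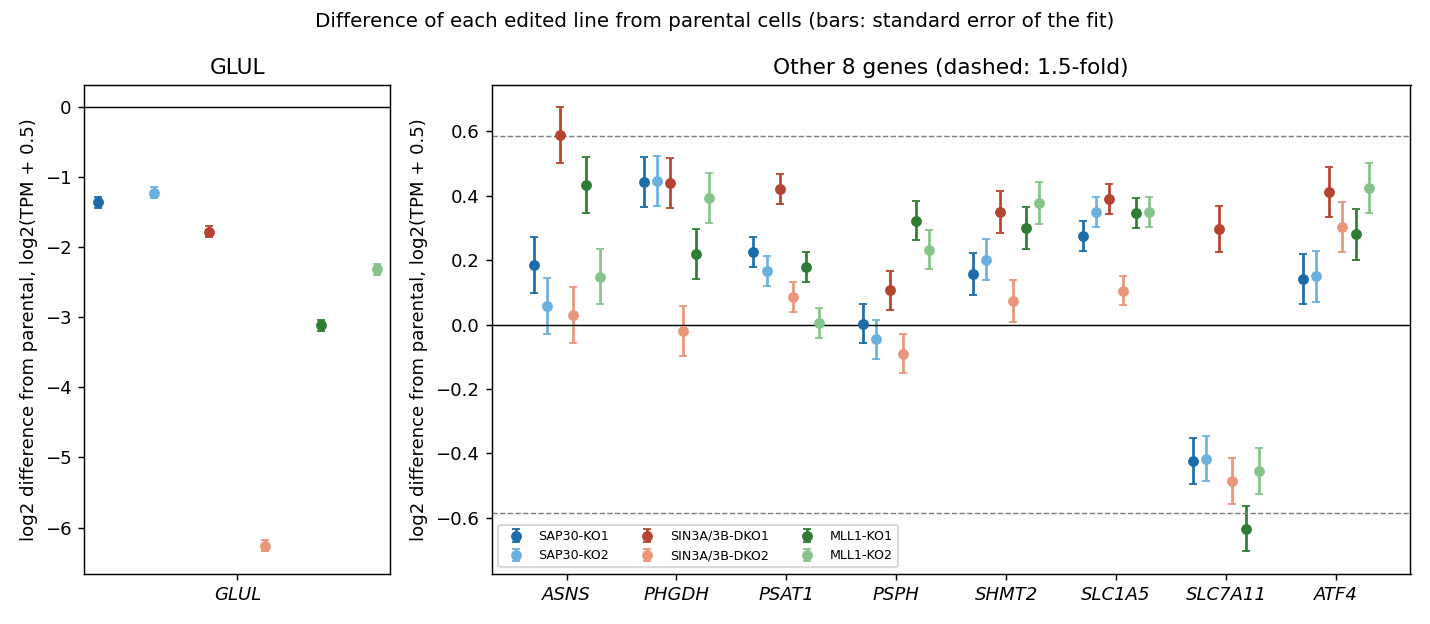
Difference of each edited line from parental cells in log2(TPM + 0.5) (vertical axis) for GLUL (left panel) and the other 8 genes (right panel, on its own scale), with the standard error of the fit as bars and 1.5-fold as dashed lines. GLUL lies between -6.26 and -1.22, whereas the others lie between -0.63 and 0.59, with SLC7A11 below 0 in 5 of the 6 lines.

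Counted together and without a fold minimum, 4 of 8 members other than GLUL passed in SAP30-KO1, where 51% of all genes did, and 5 of 8 in SAP30-KO2, where 51.7% did. In SIN3A/3B-DKO1 7 of 8 passed, all 7 higher, against 56.0% of all genes in either direction. In MLL1-KO1 9 of 9 passed, 7 higher and 2 lower, against 60.5%, and in MLL1-KO2 7 of 9, 5 higher and 2 lower, against 64.2%. Several of the smaller changes did not pass once 1 library was left out. In SAP30-KO2 these were PSAT1 without parental library 2 or SAP30-KO2 library 2 (adjusted p = 0.094 and 0.059) and SHMT2 without parental library 2 or either SAP30-KO2 library (adjusted p from 0.050 to 0.13). In MLL1-KO1 they were PHGDH without either parental library or MLL1-KO1 library 2 (adjusted p from 0.075 to 0.23), PSAT1 without parental library 2 or MLL1-KO1 library 2 (0.059 and 0.050) and ATF4 without parental library 1 or MLL1-KO1 library 2 (0.080 and 0.088). In MLL1-KO2 PSPH did not pass without parental library 1 (0.061). In SIN3A/3B-DKO2, with 49.6% of all genes passing, the members were not tested. With the 1.5-fold minimum no member other than GLUL was called in SAP30-KO1, SAP30-KO2 or MLL1-KO2. The background of that rule was 7.86% lower and 7.8% higher in SAP30-KO1, with 8.12% and 7.44% for SAP30-KO2, while 8.66% were lower for SIN3A/3B-DKO1. It was 7.56% and 6.0% in SIN3A/3B-DKO2, and 6.89% and 10.2% higher in MLL1-KO1 and MLL1-KO2. All 6 lines were set against the same 2 parental libraries.

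The scale matters in the MLL1-KO lines, since the median of all genes was -0.090 in MLL1-KO1 and moved to 0.037 with quantile normalization, a change in the share of genes called lower from 2210 lower and 933 higher to 1545 lower and 1451 higher. In MLL1-KO2 the split moved from 2021 lower and 1387 higher to 1680 lower and 1788 higher. The members kept their directions in the MLL1-KO lines with quantile normalization and with median ratio scaling.

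Between the 2 lines of a genotype the members behaved differently. The SAP30-KO lines were alike, with 0 of 9 members passing and 0.524% of all genes. In the MLL1-KO lines 3 of 9 members passed, against 42.1% of all genes: GLUL, ASNS, which was lower in MLL1-KO2 at -0.28 (adjusted p = 0.021), and PSAT1, lower at -0.18 (adjusted p = 0.011). ASNS did not pass without MLL1-KO1 library 2 or either MLL1-KO2 library (adjusted p from 0.067 to 0.13), nor PSAT1 without library 2 of either line (0.079 and 0.054). Between the SIN3A/3B-DKO lines 6 of 8 members other than GLUL passed, against 12.5% of all genes, and all 6 were lower in SIN3A/3B-DKO2. They were SLC7A11, ASNS at -0.56 (adjusted p = 0.0025), PHGDH at -0.46 (adjusted p = 0.0040), PSAT1 at -0.34 (adjusted p = 0.0014), SLC1A5 at -0.28 (adjusted p = 0.0035) and SHMT2 at -0.28 (adjusted p = 0.021). PSPH, at -0.20 (adjusted p = 0.057), and ATF4, at -0.11 (adjusted p = 0.39), did not pass. The 8 genes other than GLUL were all lower in library 2 of SIN3A/3B-DKO2 than in library 1, by 0.13 to 0.31 with a median of 0.21 on the log2 scale, where 46.5% of all genes tested were higher in library 1 and the median difference was -0.010. Without library 2, SHMT2 no longer passed (-0.15, adjusted p = 0.066) and the other 5 did, and SHMT2 also did not pass without either SIN3A/3B-DKO1 library (0.081 and 0.12). Without library 1, PSPH passed too (-0.30, adjusted p = 0.0041). In a fit of these 4 libraries alone none of the 6 passed (adjusted p from 0.058 to 0.26).

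Between genotypes no member other than GLUL reached 1.5-fold. Of 8 members tested, 4 differed between SIN3A/3B-DKO and SAP30-KO lines, against 48.6% of all genes. As a mean over both lines of each genotype, SLC7A11 was higher in the SIN3A/3B-DKO lines by 0.33 (adjusted p = 3.1e-04), ATF4 by 0.21 (adjusted p = 0.0091) and ASNS by 0.19 (adjusted p = 0.026), and PHGDH was lower at -0.23 (adjusted p = 0.0047), which with neighbours subtracted was -0.028 (adjusted p = 0.76). These means join 2 SIN3A/3B-DKO lines that differed from each other in SLC7A11, ASNS and PHGDH. SIN3A/3B-DKO2 alone, with means of 22.5 TPM for SLC7A11 and 81.6 TPM for ASNS, lay below both SAP30-KO lines, whose means were 23.55 and 23.65 TPM and 90.5 and 82.8 TPM. Without SIN3A/3B-DKO2 library 1, ASNS did not pass (0.11, adjusted p = 0.059) and SLC1A5 did (-0.11, adjusted p = 0.0011), and without library 2, PSAT1 and SHMT2 passed too (0.095 each, adjusted p = 0.010 and 0.011). Between MLL1-KO and SAP30-KO lines 7 of 8 passed, 4 higher and 3 lower, against 67.8% of all genes. PSPH was highest among them, followed by ATF4 at 0.21 (adjusted p = 0.0068), ASNS at 0.17 (adjusted p = 0.029) and SHMT2 at 0.16 (adjusted p = 0.010). The 3 lower values, PHGDH at -0.14, SLC7A11 at -0.12 and PSAT1 at -0.10 (adjusted p = 0.043, 0.046 and 0.016), were at -0.033, -0.020 and 0.0015 with median ratio scaling, where none of the 3 passed and PSAT1 changed sign. With neighbours subtracted PHGDH was higher in the MLL1-KO lines, at 0.25 (adjusted p = 0.0056). Between MLL1-KO and SIN3A/3B-DKO lines 5 of 8 passed, against 67.8% of all genes, with SLC7A11 lower at -0.45 (adjusted p = 1.1e-05) and PSAT1 lower at -0.16 (adjusted p = 0.0012), and PSPH, SHMT2 (0.13, adjusted p = 0.029) and SLC1A5 (0.10, adjusted p = 0.018) higher. GLUL itself differed by -2.73 between SIN3A/3B-DKO and SAP30-KO lines, and MLL1-KO lay -1.43 from SAP30-KO and 1.30 from SIN3A/3B-DKO, given without a test.

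Over the 7 group means the Pearson correlation with GLUL was 0.45 for SLC7A11, 0.40 for PHGDH and -0.50 for ATF4, and between 0.0002 and 0.068 for the other 5. By Spearman's rho, which uses ranks only, the values were 0.75 for SLC7A11, 0.46 for PHGDH, -0.68 for ATF4 and from -0.32 to -0.036 for the other 5. Among the 10119 genes with a group mean of at least 10 TPM, the 5 with the highest correlation were ERP29 (0.97), SNORA8 (0.96), HFE (0.94), RRAGA (0.93) and ALG12 (0.93), of which 1 was also among the 5 highest by Spearman's rho. RANBP10 was the only gene with a rho of 1.0. ERP29, a chaperone of the endoplasmic reticulum, went from 336 TPM in parental cells to 295 TPM in SIN3A/3B-DKO2, and RRAGA, a subunit of the Rag GTPase that signals amino acids to mTORC1, from 165 to 129 TPM. SNORA8, a small nucleolar RNA, went from 10.7 to 3.44 TPM and HFE, an iron regulator, from 16.3 to 9.82 TPM. These correlations are over 7 points that share libraries, and the SIN3A/3B-DKO2 value of GLUL weighs heavily in them.

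Other genes of the same pathways were taken from 6 lists, of which 148 of 174 genes passed the filter on low values. Over all 6 lists, 10 genes were called lower and 12 higher in SAP30-KO1, as were 11 and 13 for SAP30-KO2, 7 and 17 for SIN3A/3B-DKO1, and 8 and 9 for SIN3A/3B-DKO2. In MLL1-KO1 18 were called lower and 10 higher, which became 14 and 14 with quantile normalization and 14 and 15 with median ratio scaling, and in MLL1-KO2 19 and 13. Among all genes tested, 7.86%, 8.12%, 8.66%, 7.56%, 16.3% and 14.9% were called lower in these 6 lines in that order. The shares called higher were 7.8%, 7.44%, 7.76%, 6.0%, 6.89% and 10.2%. The median over all 148 genes lay between -0.10 and 0.068 in the 6 lines, and that of all genes tested between -0.090 and 0.030. Medians of single lists ranged from -0.28 for glutathione and NRF2 target genes in MLL1-KO2 to 0.18 for the integrated stress response in SAP30-KO1.

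In serine, glycine and one-carbon metabolism, with 20 genes tested, no more than 1 gene was called lower and no more than 2 higher in any line. Among all genes, 7.56% to 16.3% were called lower and 6.0% to 10.2% higher, depending on the line. CTH, which makes cysteine from cystathionine, rose from 21.7 TPM ± 1.06 (SD, n = 2) in parental cells to 60.3 TPM ± 3.86 and 38.4 TPM ± 7.28 in the SIN3A/3B-DKO lines, changes of 1.45 and 0.80. It was also higher in the SAP30-KO lines, by 0.96 and 0.90, where its neighbours on chromosome 1 were at 0.41 and 0.26 and the call in SAP30-KO1 was lost once they were subtracted. ALDH1L1, a folate enzyme, was at 4.16 TPM ± 0.616 in parental cells and at 0.544 and 0.492 TPM in MLL1-KO1 and MLL1-KO2, changes of -2.155 and -2.23 (adjusted p = 1.8e-06 and 1.2e-06). The SAP30-KO lines held 2.43 and 2.44 TPM of ALDH1L1.

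In glutamine, glutamate, aspartate and proline metabolism, with 26 genes tested, 0 genes were called higher in 5 lines and 1 in MLL1-KO2, and 1 to 4 were called lower. The shares of all genes were 6.0% to 10.2% higher and 7.56% to 16.3% lower, depending on the line. ASRGL1, which cleaves asparagine and isoaspartyl peptides, was at 4.31 and 4.37 TPM in parental libraries and had 0 reads in all 4 SAP30-KO libraries, at least 26.1-fold lower in SAP30-KO1 and 29.0-fold lower in SAP30-KO2, counted against a floor of 3 reads per library. It had 0 to 2 reads in the MLL1-KO libraries and stood at 3.71 and 2.68 TPM in the SIN3A/3B-DKO lines. Its neighbours on chromosome 11 were at -0.51 and -0.50 in the SAP30-KO lines and at -0.023 and -0.070 in the MLL1-KO lines, and the calls held with these subtracted. ASS1, which joins citrulline to aspartate, was lowest in SIN3A/3B-DKO1, at 0.952 TPM ± 0.355 against 6.79 TPM ± 0.342 in parental cells, and was at 1.75 TPM in SIN3A/3B-DKO2, changes of -2.35 and -1.72 (adjusted p = 3.9e-06 and 4.7e-05). ASS1 was also called lower in the SAP30-KO lines, at 3.57 and 2.52 TPM, and in MLL1-KO2, at 2.175 TPM. In MLL1-KO1 ASS1 was at 8.36 TPM, which did not pass.

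Of 24 amino acid transporters tested, 2 to 5 were called lower and 1 to 5 higher in each line, where 7.56% to 16.3% of all genes were lower and 6.0% to 10.2% higher. SLC38A4, a carrier of neutral amino acids, fell from 18.3 TPM ± 1.34 in parental cells to 8.34 TPM in both SAP30-KO lines, with 5.99 and 8.15 TPM in the SIN3A/3B-DKO lines. It was also called lower in the MLL1-KO lines, at 7.96 and 5.76 TPM, of which MLL1-KO2 was the lowest of all groups. SLC1A3, a glutamate and aspartate transporter of the same family as SLC1A5, was low in parental cells at 1.12 TPM and rose to 7.59 TPM ± 0.206 and 8.62 TPM ± 1.20 in the MLL1-KO lines, changes of 2.32 and 2.49 (adjusted p = 1.5e-07 and 7.3e-08). It was at 3.40 and 3.02 TPM in the SAP30-KO lines. SLC1A4, a serine and alanine transporter, rose from 12.6 TPM to 25.8 TPM ± 0.796 and 22.6 TPM ± 2.35 in the SIN3A/3B-DKO lines. It was also called higher in the SAP30-KO lines, at 22.75 and 25.3 TPM. In MLL1-KO1 SLC1A4 fell to 4.20 TPM, a change of -1.48 (adjusted p = 2.5e-08), and in MLL1-KO2 it was at 11.2 TPM, which did not pass. SLC43A2 was lower in the MLL1-KO lines, at 1.09 and 1.86 TPM against 4.71 TPM ± 0.543. It was also called lower in SAP30-KO2, at 2.41 TPM, and in the SIN3A/3B-DKO lines, at 2.79 and 2.52 TPM. In SAP30-KO1 it was at 3.14 TPM, a change of -0.52, under 1.5-fold.

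The integrated stress response, the pathway that raises ATF4, had 10 of 32 tested genes called higher and 0 lower in SIN3A/3B-DKO1, the line in which ATF4, ASNS and SLC7A11 were also higher, against 7.76% of all genes called higher. It had 5 higher and 1 lower in SAP30-KO1, with 5 and 2 for SAP30-KO2, 5 and 1 in SIN3A/3B-DKO2, and 5 and 4, then 6 and 5, in the MLL1-KO lines. ATF4 RNA was also higher in MLL1-KO1 and MLL1-KO2, by 0.28 and 0.42, while SLC7A11 was lower in both. Among all genes, 6.0% to 10.2% were called higher and 7.56% to 16.3% lower, depending on the line. TRIB3, a pseudokinase gene activated by ATF4, was at 26.3 and 27.95 TPM in parental libraries, 84.7 and 89.1 TPM for SIN3A/3B-DKO1 and 53.5 and 36.5 TPM for SIN3A/3B-DKO2, changes of 1.66 and 0.70 (adjusted p = 2.0e-06 and 0.0011), of which the second was not called with neighbours subtracted. TRIB3 was also called higher in the SAP30-KO lines, at 49.9 and 51.25 TPM, and in the MLL1-KO lines, at 53.9 and 56.6 TPM. VEGFA, an angiogenic growth factor that ATF4 can also activate, rose from 72.7 TPM ± 0.944 to 132 and 140 TPM in the SAP30-KO lines and 219 and 241 TPM in the MLL1-KO lines. VEGFA was also called higher in the SIN3A/3B-DKO lines, at 128 and 110 TPM, and the call in SIN3A/3B-DKO2 was lost with neighbours subtracted. GDF15, a stress cytokine, fell in the MLL1-KO lines from 48.2 and 42.5 TPM to between 0.716 and 1.45 TPM, changes of -4.89 and -5.10 (adjusted p = 2.2e-08 and 1.4e-08). It was also called lower in SIN3A/3B-DKO2, at 19.1 and 11.2 TPM, a change of -1.59. HERPUD1, at -0.59 and -0.62 in the SAP30-KO lines, lies on chromosome 16, where its neighbours were at -0.37 and -0.39, and its calls were lost once they were subtracted.

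**Figure D4:**
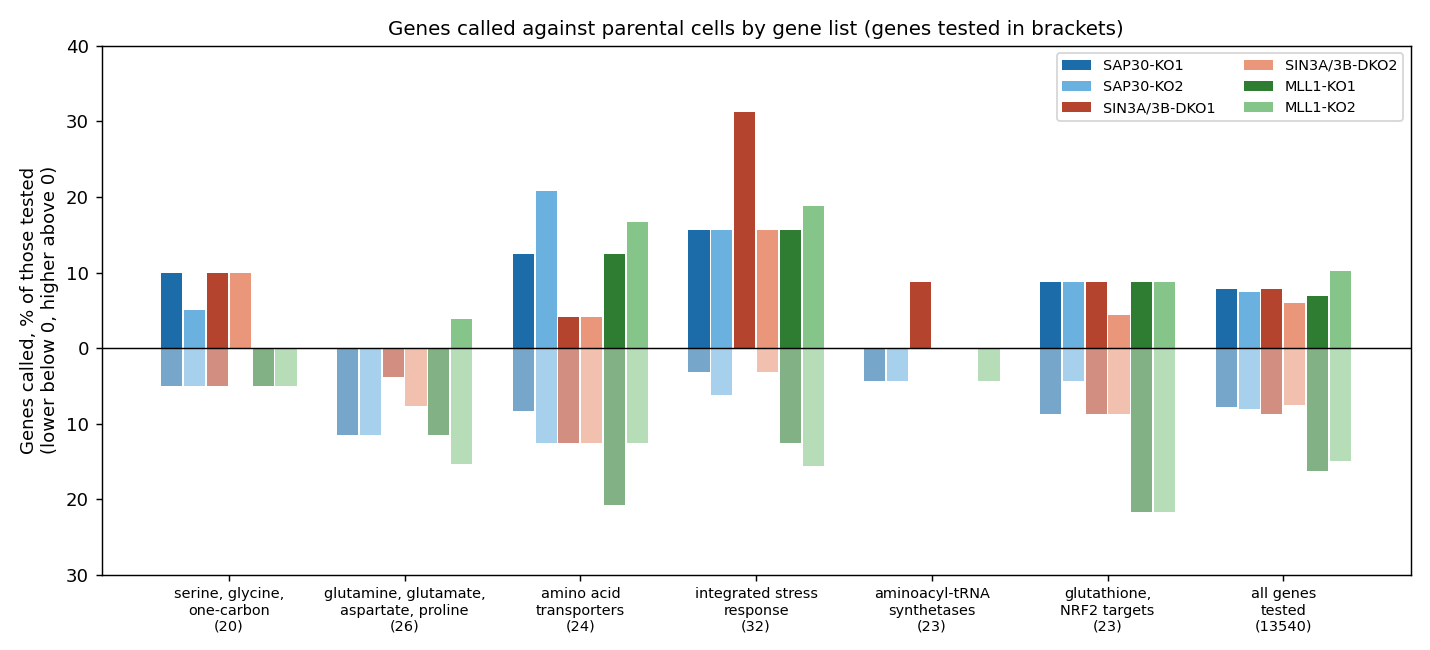
Percentage of the tested genes of each list called higher (above 0) or lower (below 0, paler) than parental cells at an adjusted p under 0.05 and at least 1.5-fold, in the 6 edited lines, with all 13540 genes at the right. The integrated stress response in SIN3A/3B-DKO1 has the tallest bar, with 10 of 32 genes higher, and the aminoacyl-tRNA synthetases have the fewest calls.

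The 23 cytosolic aminoacyl-tRNA synthetases, which load amino acids onto tRNA and are known targets of ATF4, had the fewest calls, with 0 lower and 2 higher in SIN3A/3B-DKO1 and at most 1 in each other line. The shares of all genes were 7.56% to 16.3% lower and 6.0% to 10.2% higher, depending on the line. KARS, at -0.70 and -0.80 in the SAP30-KO lines, lies on chromosome 16 among neighbours at -0.45 and -0.47, and its calls were lost with these subtracted. KARS was also called lower in MLL1-KO2, at -0.64, and that call was lost in the same way. Of 23 glutathione and NRF2 target genes, which use the cystine brought in by SLC7A11, 5 were called lower and 2 higher in each MLL1-KO line, beside 16.3% and 14.9% of all genes lower and 6.89% and 10.2% higher. GGT1, which breaks down extracellular glutathione, had 3 reads in each MLL1-KO1 library, 0.143 TPM against 2.85 TPM ± 0.474 in parental cells, and stood at 0.630 TPM in MLL1-KO2. HMOX1, which degrades heme, rose from 15.7 TPM ± 1.15 to 29.6 and 34.1 TPM in the MLL1-KO lines. It was also called higher in SIN3A/3B-DKO1, at 26.7 TPM. NQO1, at -0.91 and -1.06 in the SIN3A/3B-DKO lines, kept its call in SIN3A/3B-DKO2 alone when its neighbours on chromosome 16, at -0.47 and -0.42, were subtracted. GCLC was called lower in every edited line, at -0.63 and -0.62 in the SAP30-KO lines and -0.61 and -0.60 in the SIN3A/3B-DKO lines. In the MLL1-KO lines GCLC was at -0.66 and -0.60, and all of its calls were lost with neighbours subtracted.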

How the data were processed

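RNA was taken from MDA-MB-231 parental cells and 6 edited lines, 2 libraries each, and sequenced after poly(A) selection with the KAPA mRNA HyperPrep kit. Per the submitters' processing notes the authors used FastQC 0.11.2, TopHat and featureCounts with the hg19 genome. The annotation and the strand setting are not given in the sources used here. The table the authors deposited is named as RPKM, but every library sums to the same total, so its values are TPM, and the log2 test planned for RPKM was kept. Its steps gave back whole reads, within 0.02 reads, for 18519 of 18519 genes above 0 (100.0%), with a median of 21648530 reads per library. Differences between groups are limited by the 2 libraries in each.

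All 13540 genes with at least 1 TPM in at least 2 of 14 libraries were fitted together as log2(TPM + 0.5) with limma 3.58.1 in R 4.3.3, with 7 group means, 7 residual and 3.578 prior degrees of freedom. P-values were Benjamini-Hochberg adjusted over all genes, two-sided, and the fitting step was tested on simulated data. A gene passed at an adjusted p under 0.05 and was called with at least 1.5-fold besides. Gene positions are those of GENCODE on GRCh37, matched for 13062 genes (96.47%), and a running median over 51 genes along the chromosome was subtracted from each library as an alternative.

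The members and lists were chosen with earlier results of these data known. Named were the 9 members, the targeted genes, for every list and genotype the top gene by mean change, up and down, of those called in its 2 lines, and the 5 genes most correlated with GLUL. A few results that this rule names are not reported here. Alternatives were 2 other pseudocounts, no filter, quantile and median ratio scaling, a fit of the compared groups alone, a replicate block, other fold limits, voom on recovered reads, the neighbour subtraction and each library left out. On recovered reads voom called 1069 genes lower and 1199 higher in SAP30-KO1 and 2133 lower and 1148 higher in MLL1-KO1.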

Additional observations from a re-analysis of the deposited data

Results flagged for a closer look

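The 2 lines of a genotype are meant to carry the same knockout, and for 2 members they differed by at least 1.5-fold in a test of the difference itself. SLC7A11 was lower in SIN3A/3B-DKO2 than in SIN3A/3B-DKO1 by a log2 difference of -0.78 (limma, adjusted p = 9.0e-05), with the libraries at 23.6 and 21.5 TPM against 39.2 and 39.0 TPM, and the lines lay on opposite sides of the parental libraries. Leaving out 1 library of SIN3A/3B-DKO2 gave -0.85 and -0.72, but in a fit of the 4 SIN3A/3B-DKO libraries alone the difference did not pass (adjusted p = 0.058). The 2 libraries of SIN3A/3B-DKO2 differed more than those of any other group, their chi-square over read counts being 8.21 per degree of freedom, against 1.48 to 3.85. GLUL was higher in MLL1-KO2 than in MLL1-KO1 by 0.80 (limma, adjusted p = 2.4e-05), with the libraries at 9.66 and 9.56 TPM against 4.88 and 5.79 TPM, both far below parental cells. The cause of either difference was not tested.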

How the results depend on the processing

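Of 1279 values of single genes under the alternatives, over 91 results, 1171 kept their side of the threshold, 83 no longer passed and 22 newly passed. Of the 1171, 38 that passed under neither setting changed sign, such as PSPH in SAP30-KO1, 0.0029 as reported and -0.040 with median ratio scaling. Another 3 values changed sign and had passed as reported or under the alternative. Those 3 compare MLL1-KO with SAP30-KO lines: PHGDH was at 0.25 with neighbours subtracted, and PSAT1 at 0.0015 with median ratio scaling and 0.047 with neighbours subtracted. The replicate numbers did not pair the libraries (mean correlation of deviations 0.015, from -0.073 to 0.082), and with the replicate block the members called stayed at 0, 0, 1, 2 and 1 in SAP30-KO1, SAP30-KO2, SIN3A/3B-DKO1, MLL1-KO1 and MLL1-KO2, and no count of list genes moved. With 2 libraries a group, small changes of the members are the least certain.

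Without a fold minimum, 4, 5, 7, 9 and 7 members passed in those 5 lines, 6 between the SIN3A/3B-DKO lines, 3 between the MLL1-KO lines, and 4, 7 and 5 between SIN3A/3B-DKO and SAP30-KO, MLL1-KO and SAP30-KO, and MLL1-KO and SIN3A/3B-DKO. With a 2-fold minimum, 0 were called in SIN3A/3B-DKO1, 1 in MLL1-KO1 and 0 between the lines of either genotype. With quantile normalization or median ratio scaling, 0 were called in SIN3A/3B-DKO1 and 1 in MLL1-KO1. With neighbours subtracted, 1 was called in MLL1-KO1, 2 in MLL1-KO2 and 2 between the SIN3A/3B-DKO lines, where a fit of those libraries alone called 0. Leaving out 1 library, the members called ranged from 0 to 1 in SIN3A/3B-DKO1 (0 without parental or SIN3A/3B-DKO1 library 2), from 1 to 2 in MLL1-KO1 (1 without parental library 1) and from 1 to 3 between the SIN3A/3B-DKO lines (2 without SIN3A/3B-DKO1 library 1, 3 without SIN3A/3B-DKO2 library 1). They stayed at 0 in SAP30-KO1, SAP30-KO2, between the SAP30-KO lines and between genotypes, and at 1 in MLL1-KO2 and between the MLL1-KO lines. Between MLL1-KO and SAP30-KO lines, leaving out a library took ASNS, PHGDH and SLC7A11 to adjusted p values of up to 0.098, 0.16 and 0.15.

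For list genes in the SAP30-KO, SIN3A/3B-DKO and MLL1-KO lines in turn, line 1 before line 2, 43, 43, 35, 42, 57 and 68 were lower and 46, 42, 52, 40, 40 and 38 higher without a fold minimum. With a 2-fold minimum 2, 3, 2, 5 and 10 were lower in the first 5 lines and 1, 2, 8, 0, 2 and 6 higher in the 6 lines. With neighbours subtracted 5 were lower in SAP30-KO1 and 6 in SAP30-KO2. Leaving out 1 library, the lower counts ranged from 9 to 10, 9 to 11, 6 to 7, 8 to 9, 17 to 19 and 19 to 21, and the higher ones from 11 to 13, 12 to 13, 16 to 19, 5 to 12, 7 to 11 and 13 to 14, with the 5 in SIN3A/3B-DKO2 without its library 1.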
